A study of Mus musculus with 6 samples.

Results

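Major histocompatibility complex (MHC) genes were followed through 8 groups of cells in single-cell transcriptomes labelled 4T1, a mouse mammary carcinoma line. All gene symbols beginning with H2- were taken, together with B2m, Tap1, Tap2, Tapbp, Nlrc5 and Ciita. This gave 36 genes of the 28649 symbols in the 6 libraries, and 32 of them were listed in all 6. The choice goes by gene symbol and not by level, although earlier results of these data were known when it was made. The groups compared were 3 libraries labelled shPgk1 and 3 libraries labelled shNC. Per the labels, the first are 4T1 cells that received a lentiviral short hairpin RNA against Pgk1, a glycolytic kinase, and the second are 4T1 cells that received a control hairpin, and both were selected with puromycin. The labels call the libraries biological replicates without saying that each came from its own animal or culture. The p-values therefore cover the spread among 6 libraries, which may be technical.

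Class I molecules present peptides from inside the cell to CD8 T cells on almost all nucleated cells. They consist of a heavy chain (H2-K1 and H2-D1 are the classical ones) and the light chain beta-2-microglobulin, B2m. Peptides enter the endoplasmic reticulum through the transporter Tap1/Tap2 and are loaded with the help of tapasin (Tapbp), and Nlrc5 is the transactivator of these genes. Class II molecules (H2-Aa and H2-Ab1 form one pair, H2-Eb1 is the beta chain of the other) present peptides from endosomes to CD4 T cells. Their usual carriers are dendritic cells, macrophages and B cells, and some carcinoma cells acquire them under interferon gamma. The invariant chain Cd74 guards the groove, H2-DM exchanges the invariant chain remnant for peptide, H2-DO restrains H2-DM, and Ciita switches the class II genes on.

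Cell groups were gated on the genes of the selection rule plus companion markers, with no MHC gene among them. Of 42259 barcodes kept, 29004 (68.6%) carried 1 set of markers. They comprised 15295 barcodes marked by Epcam and Krt8 (tumour), 10038 by Csf1r and Cd68 (macrophage markers), 1596 by Col1a2 (fibroblast), 1479 by Cd3e (T cell), 265 by Cdh5 (endothelial), 146 by Ccr7 and Ccl22, 110 by Cd209a (both dendritic cell markers) and 75 by Cd79a (B cell). Non-epithelial barcodes are thus present in libraries whose labels describe a carcinoma line. Between 1.49% and 16.4% of each group lay within 25% above its gate, the highest share being that of Ccr7/Ccl22. The Cdh5 barcodes also carried fibroblast companion markers at a median of 57.8 UMIs per 10000, beside 55.0 for their own companions. The Cd79a group held 3 to 28 barcodes per library at a median of 3585 UMIs (unique molecular identifiers, 1 per captured transcript), so its values are given with their UMI counts.

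The libraries held 78461414 to 128433981 UMIs in kept barcodes. Pgk1 stood at 324, 324 and 349 CPM (UMIs of a gene relative to all UMIs counted with it) in the libraries labelled shPgk1, against 350, 340 and 313 CPM in the shNC libraries, and edgeR's quasi-likelihood fit gave a log2 difference of 0.06 ± 0.07 (SE, adjusted p = 0.550). In tumour barcodes the log2 difference was 0.24 ± 0.13 (adjusted p = 0.252). The knockdown named on the labels is therefore not visible in the RNA, and the libraries are called by their labels throughout. Tumour barcodes made up 40.0%, 50.5% and 47.0% of kept barcodes in the shPgk1 libraries, against 23.2%, 25.4% and 29.5% in the shNC libraries. Values are CPM of the summed UMIs of 1 lineage in 1 library. UMIs were counted near 3' ends, so levels are compared between lineages within a gene and not between genes. 4T1 derives from BALB/c mice, whose MHC haplotype differs from that of the C57BL/6 reference. H2-K1, H2-D1 and the H2-Q and H2-T genes are paralogs, some of them near-identical. Reads may have been lost or split among them, which leaves their absolute levels uncertain, and how far this moved the counts was not tested.

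Promoter sequences are shown first because class II and class I genes are known to share a proximal module (X and Y boxes) through which Ciita and Nlrc5 act, and the levels of these genes by lineage are what the values after them describe. RefSeq promoter windows (build GRCm38.p6) were found for 30 of the 36 genes. Each line gives the 150 bases before the start on the gene's own strand, with the letters searched for in capitals. The capitals mark GATTGG (Y box core, or CCAATC where it lies on the other strand), TGACGTCA (cyclic AMP response element), AACNGATG (part of the X box), the NF-kB site of enhancer A of class I genes (the capitals in H2-K1) and an interferon response element (the first capitals in B2m). Both strands were searched, and the motifs do not share bases in these windows. Counts of genes and promoters with a motif are over the whole RefSeq window, 250 bases before to 50 after the start, so some matches lie outside the bases shown.
H2-Aa: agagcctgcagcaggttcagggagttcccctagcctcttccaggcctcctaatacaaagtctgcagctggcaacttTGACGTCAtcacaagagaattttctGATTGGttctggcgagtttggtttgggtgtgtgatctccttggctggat
H2-Eb1: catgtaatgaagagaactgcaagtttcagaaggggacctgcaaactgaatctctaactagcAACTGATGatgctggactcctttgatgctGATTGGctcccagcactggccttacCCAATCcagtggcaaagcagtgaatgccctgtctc
H2-DMb1: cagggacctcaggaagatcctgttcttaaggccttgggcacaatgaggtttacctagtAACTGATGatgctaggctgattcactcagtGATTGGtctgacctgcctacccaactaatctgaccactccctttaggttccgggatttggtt
H2-DMb2: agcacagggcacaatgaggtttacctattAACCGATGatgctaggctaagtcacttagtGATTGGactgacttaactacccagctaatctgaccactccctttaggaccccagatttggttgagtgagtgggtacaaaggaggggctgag
B2m: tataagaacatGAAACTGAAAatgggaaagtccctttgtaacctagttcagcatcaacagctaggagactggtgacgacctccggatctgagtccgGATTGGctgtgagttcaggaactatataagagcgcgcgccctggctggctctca
H2-K1: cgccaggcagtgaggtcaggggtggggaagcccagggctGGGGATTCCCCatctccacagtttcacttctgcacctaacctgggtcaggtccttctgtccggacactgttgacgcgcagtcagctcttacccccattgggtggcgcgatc
The windows lie at chr17:34287824-34287973 on the minus strand for H2-Aa, chr17:34305717-34305866 on the plus strand for H2-Eb1, chr17:34153041-34153190 (plus) for H2-DMb1, chr17:34145099-34145248 (plus) for H2-DMb2, chr2:122147537-122147686 (plus) for B2m and chr17:34000348-34000497 (minus) for H2-K1.

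On either strand, the Y box core GATTGG lay in the promoters of 8 of 8 class II genes and 12 of 18 class I heavy chain genes. It lay in 16.1% of 32851 promoters of the same length. Before the start, all 8 class II genes had GATTGG on the gene's own strand. Among the 12 class I heavy chain genes only H2-T22 had it so, and the others had CCAATC. Whether these CCAATC matches belong to an X and Y box module was not tested. The X box part AACNGATG was found in 4 of the 8 class II genes, against 2.32% of promoters. It was in both H2-DMb1 and H2-DMb2, whose windows read alike around it, and in H2-Eb1 and H2-Eb2. TGACGTCA was found in H2-Aa alone among the 30 genes and in 1.79% of promoters. The NF-kB site was in 10 promoter windows of the whole table (0.0304%), and 4 of those belonged to H2-K1 (2 overlapping windows), H2-D1 and H2-Q6. The interferon response element was in 3 of the 30 genes, B2m among them, against 3.44% of promoters. Each match is a run of letters and not a measured binding site.

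Set against Csf1r/Cd68 barcodes with library as a block, 27 MHC genes were tested in each of 4 lineages by edgeR. In tumour barcodes 6 were higher and 13 lower, where 76.1% of all genes passed (38.0% higher and 38.1% lower). In Cd3e barcodes 6 were higher and 15 lower (67.0% of all genes, 33.9% higher and 33.0% lower), and in Cdh5 barcodes 4 were higher and 15 lower (56.4%, 27.4% higher and 29.1% lower). In Col1a2 barcodes 1 was higher and 24 lower, where 69.7% of all genes passed (33.0% higher and 36.7% lower). The members' median difference was -0.22 in tumour, -0.46 in Cd3e, -0.34 in Cdh5 and -0.83 in Col1a2 barcodes, where the medians of all genes lay between -0.05 and -0.01.

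Classical class II genes were highest in Cd209a barcodes, followed by Ccr7/Ccl22 and Csf1r/Cd68 barcodes, and were lower by far in tumour, Col1a2, Cdh5 and Cd3e barcodes. H2-Aa, the alpha chain of the first class II pair, averaged 10659 ± 1445 CPM in Cd209a barcodes, 7720 ± 1074 in Ccr7/Ccl22 and 6399 ± 828 in Csf1r/Cd68 (SD, n = 6 libraries in each lineage). It averaged 2086 ± 902 CPM in Cd79a barcodes, where all 6 libraries together held 1016 UMIs of it, and 1368 ± 348 in tumour barcodes. In Col1a2, Cdh5 and Cd3e barcodes it averaged 693 ± 221, 652 ± 252 and 631 ± 198 CPM. The Cd209a and Ccr7/Ccl22 libraries overlapped in level, as did Ccr7/Ccl22 and Csf1r/Cd68. The levels of the 3 lowest lineages overlapped across libraries, and these lineages were not tested against each other within libraries. Set as a share of the Csf1r/Cd68 level in the same library, the sum of H2-Aa, H2-Ab1 and H2-Eb1 had a median of 161% in Cd209a, 109% in Ccr7/Ccl22, 30.1% in Cd79a and 23.2% in tumour barcodes. It was 11.3% in Col1a2, 10.8% in Cdh5 and 10.07% in Cd3e barcodes, where the sum of the macrophage genes C1qa, C1qb and C1qc stood at 8.03%, 6.97% and 7.24% of its Csf1r/Cd68 level.

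H2-Ab1, the beta chain that pairs with H2-Aa, averaged 10251 ± 1725 CPM in Cd209a barcodes, 6490 ± 1262 in Ccr7/Ccl22, 6759 ± 1014 in Csf1r/Cd68 and 1387 ± 400 in tumour barcodes. H2-Eb1 averaged 7290 ± 914, 4851 ± 1004, 4464 ± 611 and 1249 ± 310 CPM in the same 4 lineages. Among these 4 lineages both kept the order of H2-Aa, except that Ccr7/Ccl22 and Csf1r/Cd68, whose libraries overlapped, changed places for H2-Ab1. H2-Eb2, a further beta chain gene, had 180 UMIs in all kept barcodes and stayed under 20 CPM in every lineage.

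**Figure D1:**
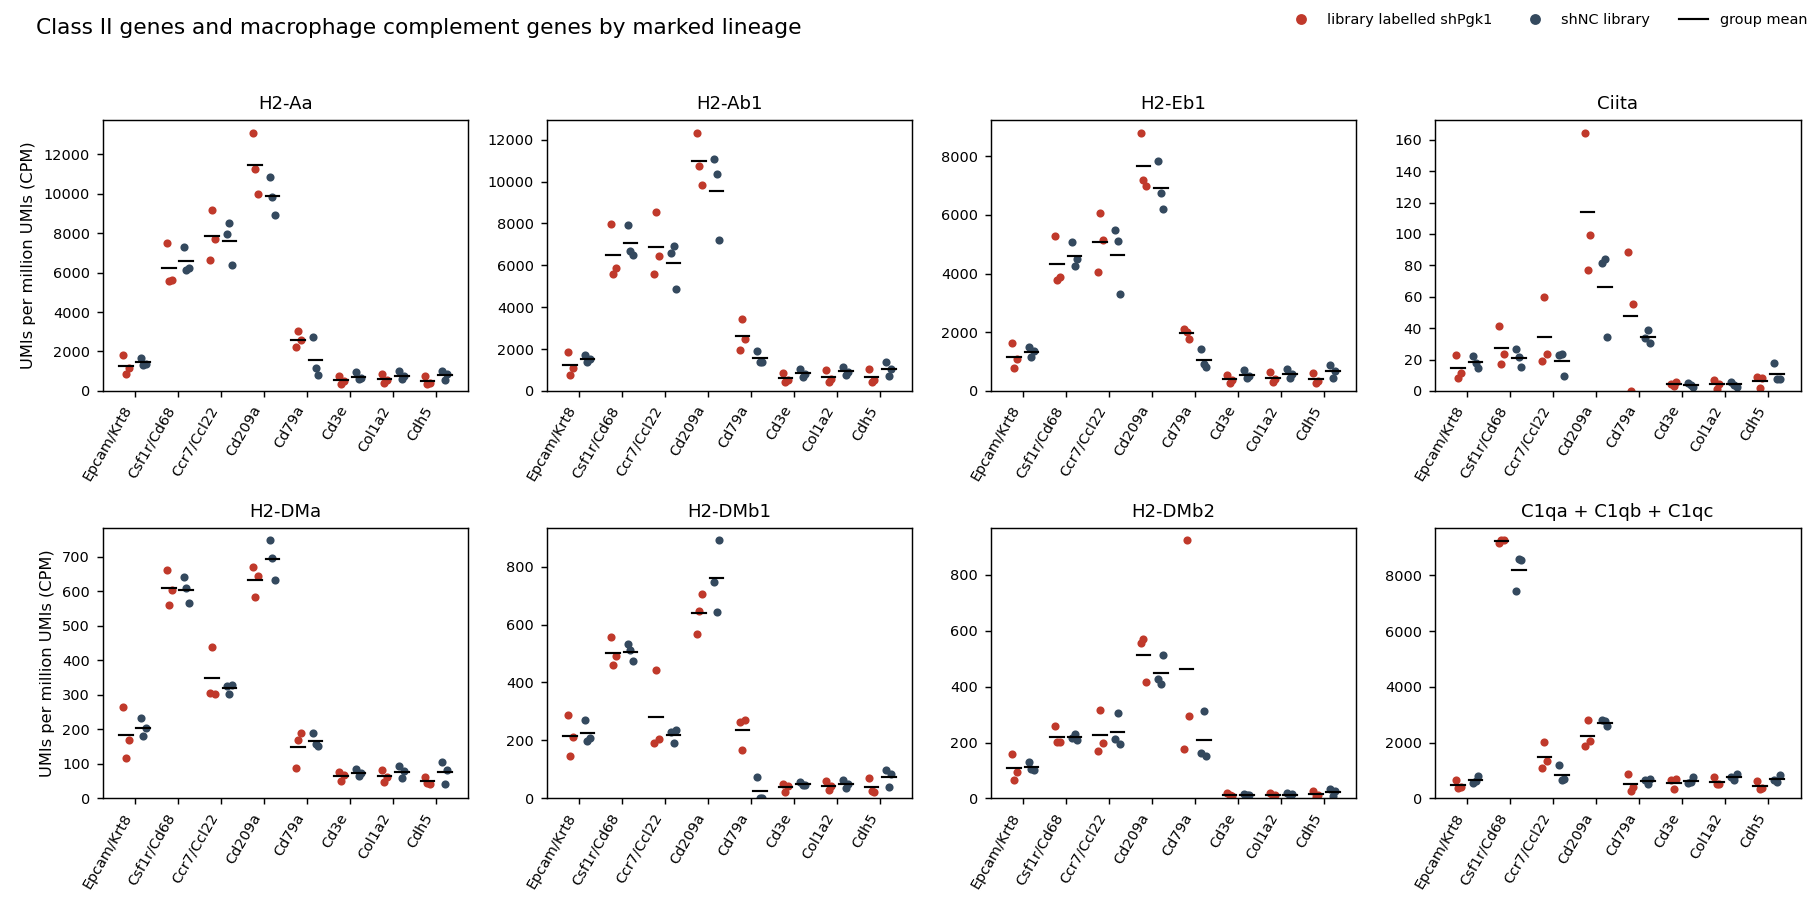
Level (CPM, linear axis from 0) of 7 class II genes and of the summed C1q genes in each lineage, 1 point per library and a bar at the group mean, with the shPgk1 libraries (red) left of the shNC libraries (blue). Cd209a, Ccr7/Ccl22 and Csf1r/Cd68 barcodes carry the highest H2-Aa, H2-Ab1 and H2-Eb1 levels, tumour barcodes lie between them and the Cd3e, Col1a2 and Cdh5 barcodes, and the points of both groups overlap in tumour and Csf1r/Cd68 barcodes for these 7 genes.

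The peptide exchange genes and Ciita were also highest in Cd209a barcodes. Their highest lineage mean was 10.4 times the lowest for H2-DMa, 15.8 times for H2-DMb1, 36.3 times for H2-DMb2 and 21.9 times for Ciita, beside 14.3 to 16.9 times for H2-Aa, H2-Ab1 and H2-Eb1. H2-DMa, the H2-DM alpha chain, averaged 662 ± 56.8 CPM in Cd209a barcodes and 606 ± 39.7 in Csf1r/Cd68, against 334 ± 52.2 in Ccr7/Ccl22 barcodes and 195 ± 51.5 in tumour barcodes. H2-DMb1, an H2-DM beta chain, averaged 700 ± 111, 504 ± 35.7, 250 ± 97.4 and 221 ± 51.9 CPM in these 4 lineages. In the fit with library as a block, Ccr7/Ccl22 barcodes were lower than Csf1r/Cd68 barcodes in H2-DMa (log2 -1.13 ± 0.14, adjusted p = 5.06e-08, edgeR) and in H2-DMb1 (log2 -1.28 ± 0.24, adjusted p = 1.05e-04), while H2-Aa differed by 0.05 ± 0.17 (adjusted p = 0.857). The median gene of that fit stood at -0.33, and at -0.03 under DESeq2's scaling, and relative to that median H2-DMa and H2-DMb1 remain lower. H2-DMb2, the second beta chain, averaged 482 ± 73.2 CPM in Cd209a, 337 ± 295 in Cd79a (from 111 UMIs), 233 ± 62.2 in Ccr7/Ccl22, 220 ± 22.4 in Csf1r/Cd68 and 110 ± 32.2 in tumour barcodes. It fell to 13.3 ± 4.32 CPM in Col1a2 barcodes, its lowest lineage.

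H2-Oa and H2-Ob, the chains of H2-DO, left the pattern of the other class II genes. H2-Oa averaged 57.7 ± 35.9 CPM in Cd209a, 38.0 ± 14.6 in Ccr7/Ccl22 and 15.4 ± 2.73 in Cd3e barcodes, against 3.54 ± 1.2 in Csf1r/Cd68 and 3.24 ± 1.19 in tumour barcodes. It was higher in Ccr7/Ccl22 than in Csf1r/Cd68 barcodes by 3.19 ± 0.32 on the log2 scale (adjusted p = 6.40e-11, edgeR), and also higher in Cd3e barcodes, by 1.77 ± 0.20 (adjusted p = 1.13e-09). H2-Ob was highest in Cd79a barcodes at 99.9 ± 119 CPM, a mean over libraries that held 0 to 12 UMIs each. In Csf1r/Cd68 barcodes H2-Ob averaged 2.47 ± 0.68 CPM. Ciita averaged 90.0 ± 42.4 CPM in Cd209a barcodes and 41.2 ± 29.3 in Cd79a barcodes, where it had 19 UMIs. It averaged 24.3 ± 9.23 CPM in Csf1r/Cd68, 16.4 ± 5.90 in tumour, 4.2 ± 2.1 in Col1a2 and 4.10 ± 1.27 in Cd3e barcodes.

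Tumour barcodes were next set against Cd3e barcodes of the same library. Mouse T cells are not known to make class II RNA to any extent, so their level serves here as the background of each library, and macrophage genes were measured the same way. In tumour barcodes H2-Aa stood at 1812, 847 and 1186 CPM in the shPgk1 libraries and 1685, 1304 and 1375 CPM in the shNC libraries. In Cd3e barcodes it stood at 736, 359 and 525 CPM in the shPgk1 libraries and 942, 579 and 646 CPM in the shNC libraries. The tumour value was the higher in 6 of 6 libraries, with a median ratio of 2.26 (range 1.79 to 2.46). The ratio was larger for the H2-DM genes and Ciita. Its median was 2.73 for H2-DMa, 4.93 for H2-DMb1, 8.34 for H2-DMb2 and 4.43 for Ciita, above 1 in 6 of 6 libraries for each.

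The complement genes C1qa, C1qb and C1qc, made by macrophages, had a summed tumour to Cd3e ratio of 1.02 (median, range 0.58 to 1.12), and Lyz2, the myeloid lysozyme, one of 1.02 (range 0.65 to 1.17). The lowest C1q ratio was that of shPgk1 library 3. In the edgeR fit with library as a block, tumour barcodes exceeded Cd3e barcodes by 1.30 ± 0.11 on the log2 scale for H2-Aa, 1.12 ± 0.11 for H2-Ab1, 1.57 ± 0.11 for H2-Eb1, 1.64 ± 0.11 for H2-DMa, 2.49 ± 0.17 for H2-DMb1, 3.14 ± 0.15 for H2-DMb2 and 2.20 ± 0.18 for Ciita. Adjusted p-values from edgeR ran up to 3.72e-10 for these 7 genes. The 10 macrophage companion genes differed by -0.09 to 0.23, and none passed the adjusted threshold of 0.05. The other 2 class II genes tested did not follow. H2-Oa was lower in tumour than in Cd3e barcodes by a log2 difference of -2.14 ± 0.20 (adjusted p = 1.07e-11, edgeR), in 6 of 6 libraries, so for H2-Oa the Cd3e level is no background, and H2-Ob differed by 0.02 ± 0.49 (adjusted p = 0.972). The 7 genes above thus stood over the Cd3e level in tumour barcodes while the macrophage genes were measured near it.

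The same held against Col1a2 barcodes. The 7 class II genes were higher in tumour barcodes by 0.72 to 2.94 on the log2 scale, as was H2-Oa, by 1.28 ± 0.30, whereas the 10 macrophage genes differed by -2.10 to -0.30. Of the 27 MHC genes tested, 16 were higher and 5 lower in tumour than in Cd3e barcodes, where 70.3% of all genes tested passed (33.8% higher and 36.5% lower). Against Col1a2 barcodes 21 were higher and 2 lower, where 72.9% passed (37.0% higher and 35.9% lower). With so large a background, these counts say little about MHC genes as a set, and the sizes above carry the description. The members' median difference was 0.45 against Cd3e and 0.88 against Col1a2, where the medians of all genes were -0.04 and 0.01.

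**Figure D2:**
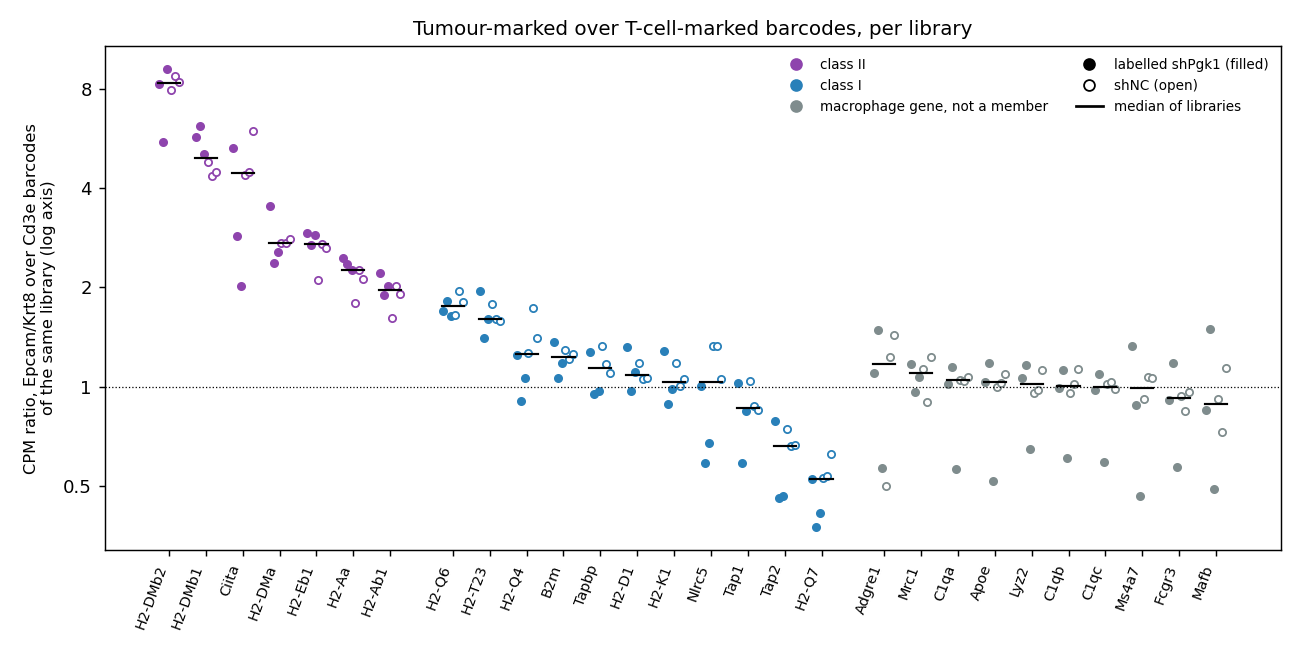
Ratio of the tumour level to the Cd3e level in the same library (log axis), 1 point per library, for class II, class I and macrophage genes, with filled points for shPgk1 and open points for shNC libraries and a bar at the median. The 7 class II genes plotted lie above 1 in every library, up to a median of 8.34 for H2-DMb2 (H2-Oa, lower in tumour barcodes, is not plotted), and the macrophage genes lie around 1, with shPgk1 library 3 below the others.

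Barcodes were then brought to equal depth by drawing 3000 UMIs from each. The mean number of H2-Aa, H2-Ab1 and H2-Eb1 UMIs per tumour barcode was 15.6, 6.87 and 9.59 in the shPgk1 libraries and 13.99, 10.98 and 12.7 in the shNC libraries. Cd3e barcodes held 6.09, 3.38 and 4.08 such UMIs in the shPgk1 libraries and 8.03, 5.26 and 5.76 in the shNC libraries. Col1a2 barcodes held 8.26, 3.79 and 4.97 in the shPgk1 libraries and 9.50, 6.50 and 7.27 in the shNC libraries. Each of these Col1a2 means was above the Cd3e mean of its library. Between 42.7% and 75.3% of a library's tumour barcodes lay above the 95th percentile of its Cd3e barcodes, a limit that about 5% of the Cd3e barcodes pass by construction. Csf1r/Cd68 barcodes held 62.0, 45.3 and 45.7 class II UMIs in the shPgk1 libraries and 59.6, 51.1 and 51.2 in the shNC libraries. Tumour barcodes lay between the Cd3e and the Csf1r/Cd68 barcodes in every library.

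**Figure D3:**
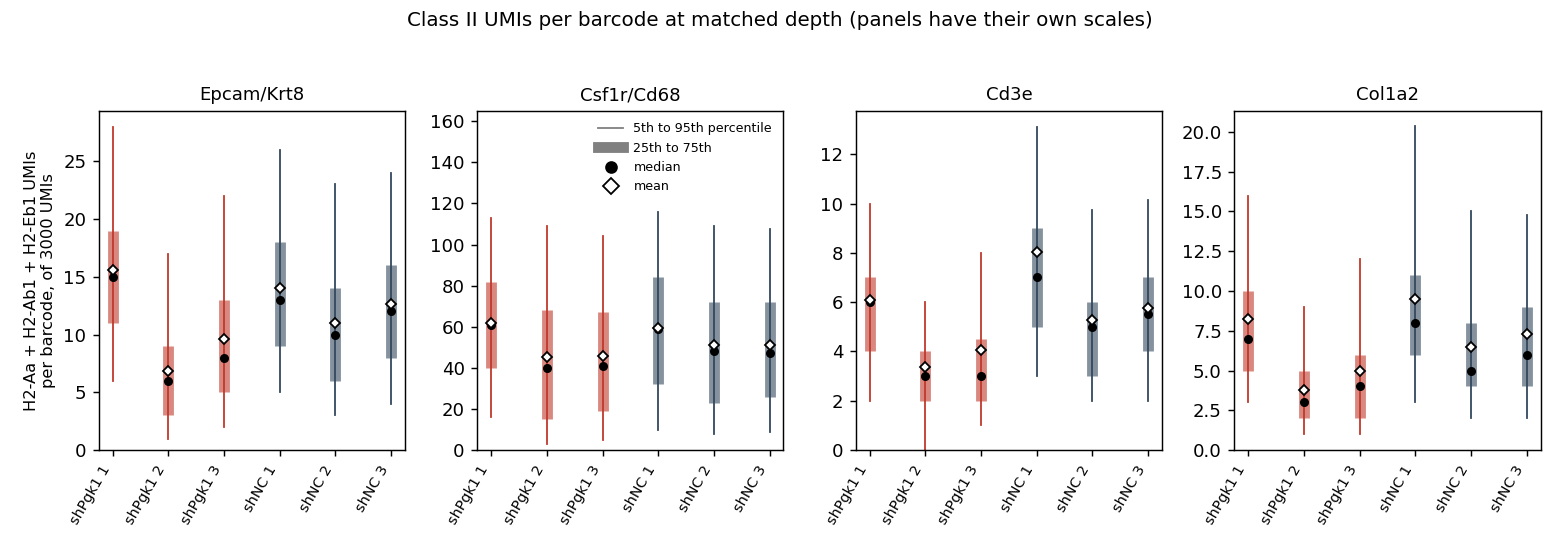
Number of H2-Aa, H2-Ab1 and H2-Eb1 UMIs per barcode after drawing 3000 UMIs from each, by lineage and library, with the shPgk1 libraries left of the shNC libraries. Thin lines span the 5th to 95th and thick bars the 25th to 75th percentile of barcodes, circles are medians, diamonds are means, and each panel has its own scale. Csf1r/Cd68 barcodes are highest, tumour barcodes lie below them and above the Cd3e and Col1a2 barcodes of their own library, and shPgk1 library 2 has the lowest tumour mean, 6.87 UMIs.

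Among tumour barcodes, those rich in class II RNA were also richer in the loading genes and in part of class I. Tumour barcodes of each library were ordered by their class II UMIs at equal depth, and the upper quartile was set beside the lower quartile, as a description. H2-DMb2 averaged 183 ± 38.5 CPM in the upper and 49.7 ± 23.7 CPM in the lower quartile (SD, n = 6), with a median ratio of 4.03. The median ratio was 3.10 for H2-DMb1, 2.93 for H2-DMa, 2.59 for Ciita and 2.26 for Cd74. Class I genes followed with smaller ratios of 1.71 for H2-T23, 1.59 for Tap1, 1.55 for H2-K1, 1.49 for H2-D1 and 1.26 for B2m, each above 1 in 6 of 6 libraries. Nlrc5 had a ratio of 0.93 and was higher in the upper quartile in 1 of 6 libraries. The C1q sum and Lyz2 each had a ratio of 1.2 and the tumour companion markers one of 1.17. The upper quartile was also deeper, with a median of 16640 UMIs per barcode over libraries against 12029 in the lower quartile. The part of depth and free RNA in these ratios was not tested.

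In Csf1r/Cd68 barcodes the same class II genes were richer in the upper quartile, in a partly different order. Between their upper and lower quartiles, the median ratio was 4.02 for H2-DMb2, 3.97 for Cd74, 3.67 for H2-DMb1, 2.81 for Ciita and 1.95 for H2-DMa. It was 1.34 for H2-K1, 0.95 for Nlrc5, 1.23 for the C1q sum and 1.12 for Lyz2. The tumour companion markers had a ratio of 0.78, above 1 in 0 of 6 libraries. Here too the upper quartile was deeper, with a median of 17291 UMIs per barcode over libraries against 14074.5.

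Class I genes varied far less between lineages than class II genes. B2m averaged 4927 ± 718 CPM in Cdh5 barcodes and 4858 ± 577 in Ccr7/Ccl22, followed by Csf1r/Cd68 (4563 ± 369), tumour (3819 ± 314), Col1a2 (3539 ± 892), Cd3e (3116 ± 158), Cd209a (2872 ± 423) and Cd79a (2248 ± 418). Its highest lineage mean was 2.19 times its lowest, where that factor was 16.9 for H2-Aa. H2-D1 ranged from 3689 ± 418 CPM in Ccr7/Ccl22 to 1646 ± 393 in Col1a2 barcodes, and H2-K1 from 2558 ± 344 in Cdh5 to 1217 ± 250 in Cd79a barcodes. Tumour barcodes carried both at the macrophage level, with H2-K1 at 2131 ± 240 CPM in tumour and 1884 ± 163 in Csf1r/Cd68 barcodes (log2 -0.01 ± 0.08, adjusted p = 0.888, edgeR). For H2-D1 the values were 3193 ± 381 CPM in tumour and 3097 ± 348 in Csf1r/Cd68 barcodes (log2 -0.14 ± 0.09, adjusted p = 0.161). Fitted differences are scaled so that the typical gene does not differ between lineages, which departs from the ratio of CPM values where a few abundant genes fill much of a lineage's RNA. For B2m in Cdh5 against Csf1r/Cd68 barcodes this turned the sign, with a fitted difference of -0.27 ± 0.08 although the CPM value was higher in 5 of 6 libraries.

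**Figure D4:**
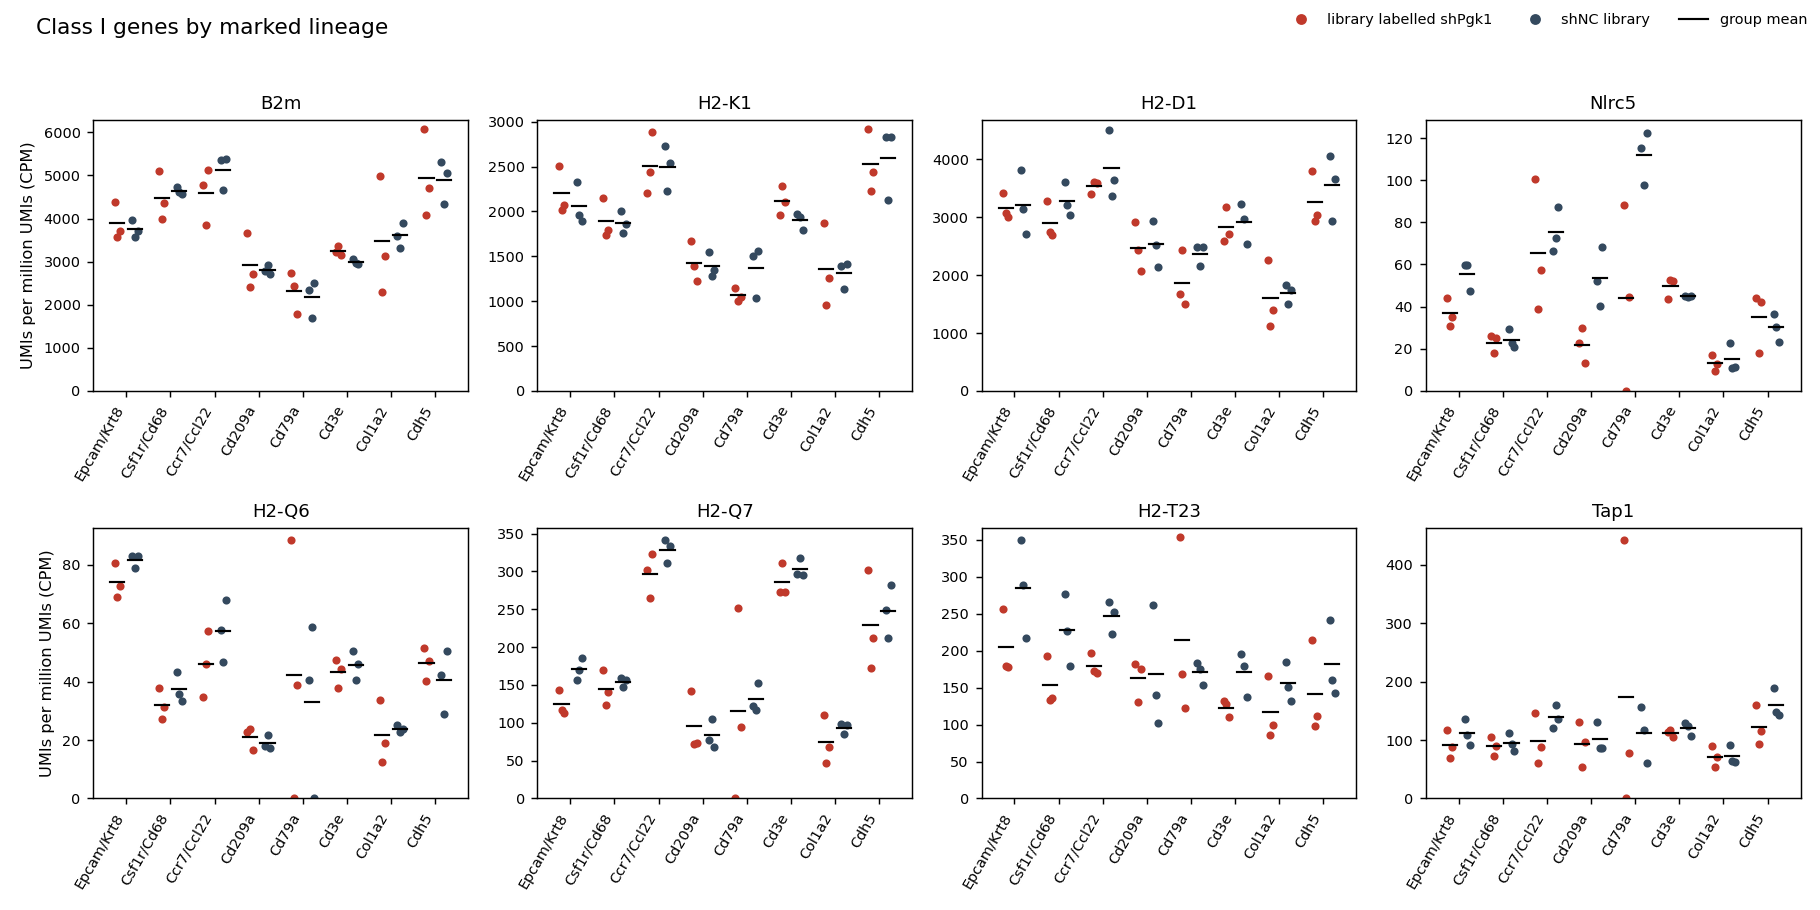
Level (CPM, linear axis from 0) of 8 class I genes in each lineage, 1 point per library and a bar at the group mean, with the shPgk1 libraries (red) left of the shNC libraries (blue). B2m, H2-K1 and H2-D1 are abundant in all 8 lineages, and all shPgk1 points lie below all shNC points for Nlrc5 and H2-Q7 in tumour barcodes and for H2-T23 in Ccr7/Ccl22 and Cd3e barcodes.

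Nlrc5, the class I transactivator, varied more between lineages than the chains, its highest lineage mean being 5.57 times its lowest. It averaged 78.0 ± 47.1 CPM in Cd79a barcodes, from 35 UMIs, 70.5 ± 21.8 in Ccr7/Ccl22, 47.3 ± 4.02 in Cd3e and 46.2 ± 12 in tumour barcodes, against 23.6 ± 4.05 in Csf1r/Cd68 and 14 ± 5.02 in Col1a2 barcodes. The edgeR difference from Csf1r/Cd68 barcodes was 1.27 ± 0.19 on the log2 scale in Ccr7/Ccl22 (adjusted p = 1.14e-06), 0.76 ± 0.11 in tumour (adjusted p = 6.08e-07) and -0.87 ± 0.14 in Col1a2 barcodes (adjusted p = 2.27e-06). Tap1, Tap2 and Tapbp stayed within a narrow range. Tapbp averaged 210 ± 32.7 CPM in tumour and 279 ± 34.3 in Csf1r/Cd68 barcodes, lower in tumour by a log2 difference of -0.61 ± 0.07 (adjusted p = 4.53e-09), and Tap1 differed by -0.07 ± 0.08 (adjusted p = 0.440). Tap2 was higher in Cd3e barcodes, at 128 ± 10.4 CPM, than in Csf1r/Cd68 barcodes, at 74.7 ± 12.1 (log2 0.44 ± 0.09, adjusted p = 4.19e-05).

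Class Ib genes, whose products are less polymorphic and serve partly other receptors than the CD8 T cell receptor, had lineage profiles of their own. H2-Q6 was highest in tumour barcodes, at 77.9 ± 5.84 CPM, against 34.8 ± 5.55 in Csf1r/Cd68 barcodes (log2 0.98 ± 0.09, adjusted p = 6.00e-12, edgeR). H2-Q1, H2-Q2, H2-Q4 and H2-Q10 were also higher in tumour than in Csf1r/Cd68 barcodes, by 0.31 to 0.79. H2-Q7, which encodes a Qa-2 molecule, averaged 313 ± 27.5 CPM in Ccr7/Ccl22, 294 ± 18.9 in Cd3e and 238 ± 48.5 in Cdh5 barcodes, against 149 ± 16.1 in Csf1r/Cd68 and 148 ± 28.9 in tumour barcodes. H2-T23, which encodes Qa-1, the ligand of the NKG2A receptor of natural killer and T cells, ranged from 245 ± 67.1 CPM in tumour barcodes to 136 ± 38.3 in Col1a2 barcodes. H2-Q4 averaged 55.8 ± 9.96 CPM in tumour, 57.1 ± 16.9 in Ccr7/Ccl22 and 56.2 ± 16.7 in Cdh5 barcodes, and 28.1 to 44.4 CPM in the other 5 lineages. H2-T22, which binds gamma-delta T cell receptors, was highest in Cdh5 barcodes at 175 ± 57.3 CPM, and was the only one of 27 members above the Csf1r/Cd68 level in Col1a2 barcodes (137 ± 34.6 against 99.3 ± 15.1 CPM, log2 0.35 ± 0.10, adjusted p = 0.00216). H2-M3, which presents formylated bacterial peptides, averaged 37.3 ± 4.55 CPM in Csf1r/Cd68 barcodes, 28.3 ± 5.68 in tumour barcodes and 21.2 ± 3.84 in Col1a2 barcodes. Since H2-Q and H2-T genes are paralogs, some of them near-identical, a lineage difference in 1 of them can include reads of another.

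H2-M2 was the most restricted of the 36 genes with a level of at least 20 CPM anywhere. In Ccr7/Ccl22 barcodes it stood at 77.4, 24.7 and 49.5 CPM in the shPgk1 libraries and 127, 56.2 and 33.9 CPM in the shNC libraries. In Csf1r/Cd68 barcodes it averaged 2.40 ± 0.93 CPM and in tumour barcodes 0.15 ± 0.09 CPM, and no UMI was found in Cd3e, Cd79a or Cdh5 barcodes. Ccr7/Ccl22 barcodes held 121 of its 664 UMIs, although they are 146 of 42259 barcodes, and Csf1r/Cd68 barcodes held 466. The difference between Ccr7/Ccl22 and Csf1r/Cd68 barcodes was 4.40 ± 0.35 on the log2 scale (adjusted p = 2.26e-11, edgeR). Beside it the Ccr7/Ccl22 barcodes were higher in H2-Oa, Nlrc5, H2-Q7 and Tap2 and lower in H2-DMa, H2-DMb1 and H2-Ke6. These are 5 of 28 MHC genes higher and 3 lower, where 32.6% of all genes passed (9.8% higher and 22.8% lower). DESeq2, whose scaling puts the median gene near 0, called 8 higher and 2 lower, where it called 15.9% of all genes higher and 13.8% lower.

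The remaining members were rare or no MHC molecule. A level of 20 CPM was reached by 24 of the 36 genes in at least 1 lineage, and 12 stayed under it: H2-Eb2, H2-M5, H2-M9, H2-M10.1, H2-M10.2, H2-M10.5, H2-M10.6, H2-Q1, H2-Q2, H2-Q10, H2-T3 and H2-T24. The 4 H2-M10 genes, which are known from the vomeronasal organ, had at most 3 UMIs each and were not listed in all 6 libraries. Of H2-Q10, 18.3 CPM were found in Cd3e barcodes, its highest lineage. Of the 110 UMIs of H2-M9, 56 lay in Col1a2 barcodes. H2-Ke6 lies in the MHC region but encodes a steroid dehydrogenase, Hsd17b8, and not an MHC molecule. It averaged 84.8 ± 20.1 CPM in Cd79a barcodes, from 32 UMIs, 47.7 ± 5.32 in Cd3e and 30.0 ± 1.62 in tumour barcodes, against 26.6 ± 1.32 in Csf1r/Cd68 barcodes.

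The genes that surround antigen presentation were read from 7 lists holding 44 genes. Between tumour and Csf1r/Cd68 barcodes, 8 of the 42 genes tested were higher and 27 lower, where 38.0% of all genes were higher and 38.1% lower. In the list of class II chaperones and lysosomal processing, 0 of 7 were higher and 7 lower, with a median difference of -2.68. Cd74 averaged 2232 CPM in tumour and 11268 in Csf1r/Cd68 barcodes (log2 -2.56 ± 0.14, adjusted p = 6.65e-14, edgeR), and Ctss, the cathepsin that trims the invariant chain, averaged 180 and 2805 CPM. The lower genes of the other lists included Cd80, Cd86, Cd40, March1, Nfya, Rfxap, Creb1, Psmb8, Irf8, Ifngr1, Ifngr2, Jak1, Fcgrt, Cd1d1, Mr1, Calr, Canx, Pdia3 and Erap1. The 8 higher genes were Nfyb, Nfyc, Rfx5, Psmb10, Psme1, Irf1, Socs1 and Tapbpl. Factors of the complex that binds the X and Y boxes were split, with Nfyb, Nfyc and Rfx5 higher and Nfya, Rfxap and Creb1 lower among the 7 tested (median -0.14). Against Cd3e barcodes, 6 of the 7 chaperone and processing genes were higher in tumour barcodes and 0 lower (33.8% and 36.5% of all genes), led by the proteases Ctsl (log2 2.56 ± 0.10) and Ctsh (1.70 ± 0.11), with Cd74 at 1.42 ± 0.14. Ctss differed from Cd3e barcodes by -0.17 ± 0.12 (adjusted p = 0.231, edgeR). Against Col1a2 barcodes the list went the other way, with 1 of the 7 genes higher in tumour barcodes and 4 lower (median -0.32). There 37.0% of all genes were higher and 35.9% lower.

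On the class I side, the immunoproteasome subunit Psmb10 was higher in tumour barcodes, at 437 CPM, than in Csf1r/Cd68 barcodes, at 282 CPM (log2 0.43 ± 0.08). Psme1, of the proteasome activator, differed by 0.16 ± 0.07 (adjusted p = 0.0344), whereas Psmb9 (0.10 ± 0.08, adjusted p = 0.240) did not pass. Irf1, the interferon-induced factor that binds class I promoters, was higher in tumour barcodes by 0.76 ± 0.08, and the peptide-trimming enzyme Erap1 was lower by a log2 difference of -0.53 ± 0.09. Ccr7/Ccl22 barcodes were higher than Csf1r/Cd68 barcodes in the co-stimulatory genes Cd80 (log2 2.77 ± 0.12), Cd40 (2.26 ± 0.17) and Cd86 (1.23 ± 0.20), and lower in March1, the ligase that removes class II from the surface (-2.56 ± 0.47). They were also higher in Jak2 (1.97 ± 0.12), Irf8 (1.77 ± 0.12), Cd1d1, a lipid presenter (2.70 ± 0.33), Psme1, Psme2, Creb1 and Irf1. In the chaperone and processing list they were lower in 4 of 7 genes, Ctsb, Lgmn, Ctsl and Ctss, while Cd74 differed by -0.20 ± 0.19 (adjusted p = 0.466, edgeR). In the list of other peptide loading genes, 0 of 7 were higher and 5 lower, with a median difference of -0.50. The immunoproteasome, interferon gamma and MHC-like presenter lists each held 1 lower gene. Over all lists 11 of 42 genes were higher and 13 lower, where 9.8% of all genes were higher and 22.8% lower. The median gene of that fit stood at -0.33.

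The libraries labelled shPgk1 and shNC were then compared within each lineage. No MHC gene passed an adjusted p of 0.05 in edgeR's quasi-likelihood fit in tumour barcodes (29 tested, where 0.778% of all genes passed), Csf1r/Cd68 (28, 0.432%), Cd3e (25, 0.286%), Col1a2 (26, 0.00834%), Cdh5 (20, 0.0123%) or Ccr7/Ccl22 barcodes (21, 0.0%). At an unadjusted p under 0.05 the counts were 6, 3, 1, 0, 1 and 1 in that order of lineages, where the shares of all genes were 27.5%, 16.7%, 8.81%, 7.67%, 5.32% and 8.36%. As shares of the members tested, all 6 counts are under those of all genes. DESeq2 called 3 members lower in tumour barcodes (H2-Q2, H2-Q7 and Nlrc5, where it called 5.46% of all genes lower), 1 lower in Csf1r/Cd68 barcodes (H2-T23, where it called 2.89% lower) and 0 in the other 4 lineages. The group contrast was not run for Cd209a and Cd79a barcodes, which were too few in some libraries.

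For H2-Aa, H2-Ab1 and H2-Eb1 the groups overlapped in all 6 lineages, and none of the 3 genes passed the adjusted threshold in edgeR. Their lowest log2 differences over the 6 lineage fits were -0.71, -0.71 and -0.77, and their highest were -0.04, 0.08 and 0.05. The Cdh5 difference of H2-Eb1 passed in 1 of 7 alternatives. It ran from -1.24 to -0.51 when each library was left out in turn, without passing. In Csf1r/Cd68 barcodes H2-Aa stood at 7511, 5576 and 5604 CPM in the shPgk1 libraries and 7297, 6154 and 6250 CPM in the shNC libraries, a log2 difference of -0.12 ± 0.13 (adjusted p = 0.673, edgeR). In tumour barcodes the log2 difference of H2-Aa was -0.09 ± 0.26 (adjusted p = 0.849), with shPgk1 library 1 the highest of all 6 and shPgk1 library 2 the lowest. At equal depth, class II UMIs per barcode averaged 10.7 ± 4.44 in the shPgk1 and 12.5 ± 1.51 in the shNC libraries for tumour barcodes (exact permutation p = 0.6, two-sided), and 51.0 ± 9.55 and 53.9 ± 4.89 for Csf1r/Cd68 barcodes (exact permutation p = 0.6). With 3 libraries a side that test cannot fall below 0.1.

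Nlrc5, H2-Q7 and H2-Q2, which DESeq2 called lower in tumour barcodes, did not pass in edgeR. Nlrc5 stood at 44.1, 30.9 and 35.3 CPM in the shPgk1 libraries and 59.97, 59.5 and 47.6 CPM in the shNC libraries, without overlap. Its log2 difference was -0.50 ± 0.14 (adjusted p = 0.0802, edgeR). H2-Q7 stood at 143, 117 and 113 CPM in the shPgk1 libraries and 157, 170 and 185 CPM in the shNC libraries, also without overlap (log2 -0.36 ± 0.11, adjusted p = 0.0923). H2-Q2, which stays under 20 CPM, had a log2 difference of -0.73 ± 0.19 (adjusted p = 0.0759). In all, 7 of 29 members had groups that did not overlap with shPgk1 lower and 0 with shPgk1 higher, where 23.3% of all genes tested lay apart with shPgk1 lower and 7.76% with shPgk1 higher. The 7 were the class II gene H2-Oa, Nlrc5 and the class Ib genes H2-Q1, H2-Q2, H2-Q4, H2-Q7 and H2-Q10. The members' count is near that background. Without shPgk1 library 1, edgeR called 4 of 28 members lower in tumour barcodes, where it called 3.89% of all genes lower. The classical heavy chain gene H2-K1 and the light chain gene B2m went the other way in sign, at 0.19 ± 0.11 (adjusted p = 0.303) and 0.15 ± 0.10 (adjusted p = 0.341, both edgeR).

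H2-T23 had a negative difference in all 6 lineage fits, as had H2-Aa, H2-Q7, H2-T22 and Tap1. In Csf1r/Cd68 barcodes it stood at 193, 133 and 136 CPM in the shPgk1 libraries and 277, 226 and 180 CPM in the shNC libraries (log2 -0.61 ± 0.19, adjusted p = 0.199, edgeR). In Cd3e barcodes it stood at 132, 127 and 110 CPM in the shPgk1 libraries and 196, 180 and 137 CPM in the shNC libraries (log2 -0.49 ± 0.13, adjusted p = 0.174). In Ccr7/Ccl22 barcodes the values were 197, 173 and 169 CPM in the shPgk1 libraries and 266, 223 and 252 CPM in the shNC libraries, from 49 to 95 UMIs a library (log2 -0.54 ± 0.23, adjusted p = 0.513). The groups did not overlap in Cd3e and Ccr7/Ccl22 barcodes and overlapped in Csf1r/Cd68 barcodes. Groups that did not overlap were rare among the members outside tumour barcodes. In Csf1r/Cd68 barcodes they were 0 of 28 with shPgk1 higher and 2 lower (H2-Q2 and H2-T24), where 14.4% of all genes lay apart higher and 8.98% lower. In Cd3e barcodes they were 1 of 25 higher (B2m) and 1 lower (H2-T23), against 7.56% and 6.29% of all genes. In Ccr7/Ccl22 barcodes they were 0 of 21 higher and 1 lower, against 9.56% and 4.67%, and in Col1a2 barcodes 0 of 26 either way, against 7.69% and 5.7%. In Cdh5 barcodes 1 of 20 lay apart higher (H2-Ke6) and 0 lower, against 6.97% and 4.79%. The lineages of 1 library share its free RNA and preparation, so these fits are not independent of each other. In sign, 22 of 29 members were negative in tumour, 26 of 28 in Csf1r/Cd68 and 13 of 25 in Cd3e barcodes, with member medians of -0.18, -0.17 and -0.07. In Col1a2 barcodes 22 of 26 were negative, in Cdh5 17 of 20 and in Ccr7/Ccl22 16 of 21, with member medians of -0.20, -0.40 and -0.21. The medians of all genes lay between -0.02 and 0.01 in these 6 fits.

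**Figure D5:**
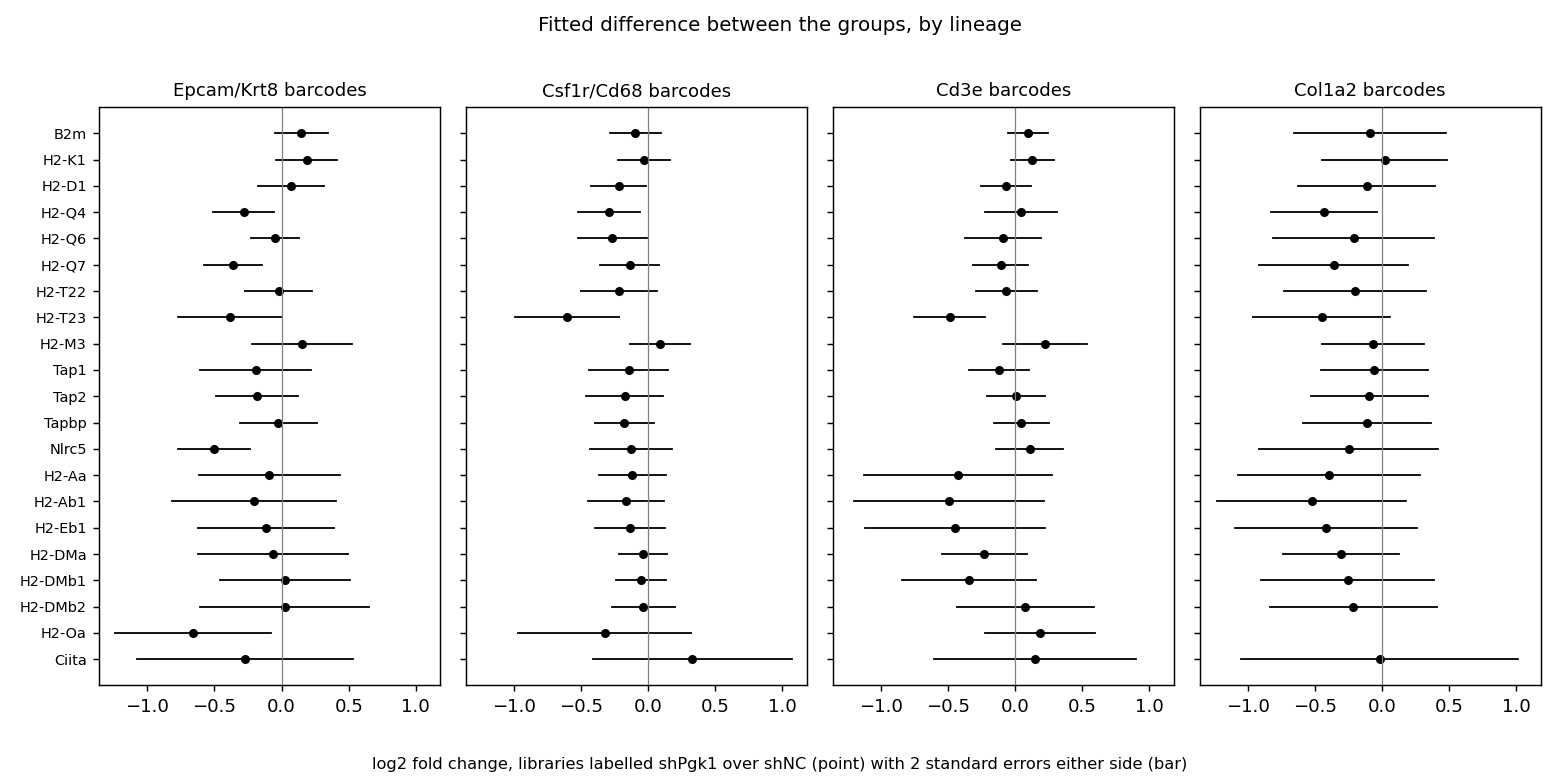
Log2 difference between shPgk1 and shNC libraries (edgeR, bars are 2 SE) for 21 MHC genes in 4 lineages. Negative values mean lower in shPgk1 libraries. No gene passed the adjusted threshold, and Nlrc5 and H2-Q7 in tumour barcodes and H2-T23 in Csf1r/Cd68 and Cd3e barcodes have bars that lie below 0.

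Over all kept barcodes, where the lineages are mixed, 0 of 31 members passed in edgeR or DESeq2 although 17.2% of all genes did in edgeR (1 member at an unadjusted p under 0.05, where 36.7% of all genes were). H2-Aa stood at 3714, 1882 and 2327 CPM in the shPgk1 libraries and 4083, 3294 and 3113 CPM in the shNC libraries (log2 -0.33 ± 0.24, adjusted p = 0.351). The share of Csf1r/Cd68 barcodes was 26.0%, 16.4% and 18.9% in the shPgk1 libraries and 28.8%, 25.9% and 27.1% in the shNC libraries, and its part in that value was not tested. The groups lay apart for 4 members with shPgk1 lower (H2-Ke6, H2-M2, H2-Q2 and H2-Q7) and for 0 with shPgk1 higher, where 25.9% of all genes lay apart lower and 15.9% higher. Without shPgk1 library 1, edgeR called 7 of 31 members lower over all barcodes, where it called 9.94% of all genes lower. The number of genes called over all barcodes, 3374, ran from 3 to 5168 when 1 library was left out, with 3 without shPgk1 library 3 or shNC library 2 and 9 without shPgk1 library 2. Of the genes in the surrounding lists, 0 passed in any of the 6 lineages (42 tested in tumour and Csf1r/Cd68, 40 in Cd3e and Col1a2, 37 in Cdh5 and 31 in Ccr7/Ccl22 barcodes). Over all barcodes 3 of 42 were higher (Nfyb at 0.31 ± 0.06, Nfyc at 0.30 ± 0.06 and Hspa5 at 0.27 ± 0.07) and 3 lower (Cd80 at -0.45 ± 0.07, Ifngr1 at -0.37 ± 0.09 and Fcgrt at -0.57 ± 0.10).

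Whether the group difference depended on the lineage was tested as an interaction against Csf1r/Cd68 barcodes. None of 29 members passed in tumour, Cd3e, Col1a2 or Cdh5 barcodes in edgeR, where 0.0%, 0.0274%, 0.582% and 0.0205% of all genes passed, and DESeq2 called 0 among the 18 to 29 members to which it gave an adjusted p. At an unadjusted p under 0.05 there were 1, 0, 2 and 8 members in these lineages, where 8.71%, 7.22%, 7.69% and 7.84% of all genes were. As a share of the 29 members, the Cdh5 count is above that of all genes, and the other counts are under it. The Cdh5 group held 25 to 62 barcodes per library. Its interaction for H2-Eb1 ran from -0.72 to -0.64 on the log2 scale under 5 alternatives, of which 1 passed the adjusted threshold. The smallest adjusted p in tumour barcodes was that of Ciita. Its tumour level was 23.2, 8.29 and 11.7 CPM in the shPgk1 libraries and 22.5, 17.7 and 14.9 CPM in the shNC libraries, and its Csf1r/Cd68 level was 41.0, 17.2 and 23.8 CPM in the shPgk1 libraries and 26.9, 21.7 and 15.3 CPM in the shNC libraries. The tumour difference minus the Csf1r/Cd68 difference was -0.61 ± 0.17 on the log2 scale (adjusted p = 0.169).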

How the data were processed

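The deposited files are 6 droplet matrices of UMI counts per gene and barcode, counted by the authors with PISA v0.12 per the file headers. The submitters' processing notes also name Seurat 4 and a human build (GRCh38/hg38), although the gene symbols are those of the mouse. No aligner or annotation is named (not given in the sources used here). MHC genes, gene lists and gates were chosen with earlier results of these data known.

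Of 42902 barcodes, 643 with under 500 UMIs, under 300 genes or over 20% mitochondrial UMIs were left out. A barcode joined a lineage when its gate genes and companion markers both passed a minimum per 10000 UMIs, with at least 2 UMIs of the gate genes, and 361 that passed several gates and 12894 that passed none were left out. The minimums were set after the marker distributions were seen. Scrublet scores above 0.25 marked 825 barcodes, left out as an alternative only. Barcode names are ordinal, and 1234 to 1671 recur between each pair of libraries. Counts were summed per library and lineage with at least 20 barcodes, and 15 for Ccr7/Ccl22, a minimum lowered after the data were seen. The contrasts of tumour with Cd3e and Col1a2 barcodes, the equal-depth counts outside Csf1r/Cd68 barcodes and the fit without both libraries 1 were also added then. edgeR 4.0.16 (R 4.3.3) with TMM scaling, filterByExpr and the quasi-likelihood test gave log2 differences with SE and Benjamini-Hochberg adjusted p over all genes tested, with DESeq2 1.42.0 as an alternative. Lineage contrasts carried library as a block. The fit was tested on simulated counts. Replicate numbers were not treated as pairs, since same-numbered libraries did not deviate together (correlations over all barcodes of -0.05 to 0.11). Genes were named when they reached 20 CPM in a lineage, the rest by counts and ranges. Up to 4 genes of each surrounding list were named by smallest p, with those past the threshold. In lineage contrasts other than tumour against Csf1r/Cd68, not every list gene past the threshold is named. Where UMIs are few their number is printed. 1 gene of the surrounding lists is not reported here by name.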

Additional observations from a re-analysis of the deposited data

How the results depend on the processing

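Lineage contrasts were the steadier results. Of 691 values of 65 results recomputed under the alternatives (DESeq2, RLE scaling, no filter on low counts, stricter gates, no barcodes with a high Scrublet score, and leaving out each library), 690 kept their direction and side of the threshold. The exception was H2-D1 in tumour against Csf1r/Cd68 barcodes, not called in any of them, at 0.0057 on the log2 scale with stricter gates. The comparison of shPgk1 with shNC libraries was less steady, with 152 of 175 values on the same side. Against 0 members called, DESeq2 called 3 in tumour and 1 in Csf1r/Cd68 barcodes. Without the filter on low counts there were 2 in tumour barcodes, 1 in Cd3e barcodes, and in the interactions 1 for tumour and 4 for Cdh5 barcodes. Without libraries 1 of both groups, chosen after their levels were seen, there were 6 in tumour barcodes, 2 in Csf1r/Cd68 barcodes and 7 over all barcodes. Leaving out each library in turn gave 0 to 4 in tumour barcodes (4 without shPgk1 library 1 and 1 without shNC library 1) and 0 to 7 over all barcodes (7 without shPgk1 library 1). It gave 0 to 1 in Cd3e barcodes (1 without shNC library 3) and 0 to 2 in the Cdh5 interaction (2 without shNC library 2). Calls over all genes in these runs ranged from 3 to 2306 in tumour, 4 to 71 in Cd3e and 3 to 5168 over all barcodes. They ranged from 3 to 17 in the Cdh5 interaction. Without shPgk1 library 1, edgeR called 3.89% of all genes lower in tumour barcodes and 9.94% over all barcodes. Apart from that run and DESeq2, no share of all genes stands beside the counts under the alternatives. None of these counts is read as a result about MHC genes. The tumour difference in class II UMIs at equal depth ran from -4.32 to 0.025, and that of H2-Aa from -0.42 to 0.14 on the log2 scale, both above 0 without shPgk1 library 2 and the second also without shNC library 1 (0.04). The replicate block gave 2 members over all barcodes and 3 in Cdh5 barcodes, but the numbers mark no shared source (same-number correlations of -0.10 to 0.11), and it changed no other count of members called. The cause of these changes was not tested. Dendritic and B cell marked barcodes were few, which limits their values to counting precision.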
